A study of Homo sapiens with 22 samples.

Results

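Cluster 0 is the largest of 13 clusters that the authors called on single WM989 cells under 4 treatments, and it holds cells on both sides of the border between G1 and S phase. Its members are the cells whose deposited cluster label is 0, which are 9017 of 40021 cells (22.5%) or 25.1% of the cells that are not primed. WM989 is a human melanoma cell line, used here as the clone WM989 A6-G3, so that every group is a model of 1 clone. The authors class clusters 4 and 10 as primed, the state of cells that survive BRAF and MEK inhibition, and the 11 other clusters, cluster 0 included, as not primed. All groups held cells that carried transcribed lineage barcodes. The cells of a well were divided over plates that were left untreated or kept for 5 days in 5 ng/mL TGFB1 (a ligand of TGF-β receptors), 4 µM LY2109761 (TGFBRi, an inhibitor of TGF-β receptors 1 and 2) or 2 µM GDC-0941 (PI3Ki, an inhibitor of PI3K). Each of the 4 treatments had 2 libraries, r1 and r2, from a pair of samples carried in parallel, and p-values measure the spread between these. The pair has the names Mix and Primed in the sample titles and r1 and r2 in the cell annotation, and the sources do not link these names. Primed cells made up 2.26 and 4.47% of untreated r1 and r2, 29.1 and 31.3% with TGFB1, 2.26 and 4.32% with TGFBRi and 0.647 and 1.21% with PI3Ki. Whether r1 and r2 began as like populations was not tested.

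At the border of G1 and S phase, cyclin-dependent kinases phosphorylate RB, which releases E2F factors. E2F factors then switch on genes for origin licensing, nucleotide supply, DNA synthesis and the repair that goes with it. Histone genes that depend on replication are switched on later, with DNA synthesis itself, and genes of the spindle and of mitosis later still, in G2. MYC drives entry into this program and the making of ribosomes. In melanoma cells these cycle genes are read beside genes of melanocyte identity, which the primed state has largely lost.

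The 8 libraries held 3692 to 6273 cells and 70239657 to 122420544 UMIs (unique molecular identifiers, the counted RNA molecules). Cluster 0 had 115 to 2166 cells and 1649951 to 31865274 UMIs per library, with the fewest in the 2 TGFB1 libraries. The median cell of cluster 0 had 15631 UMIs over all libraries and 11753 to 20602 UMIs by library, against 13916 to 22924.5 in the other cells that are not primed. The median percent of mitochondrial UMIs was 10.2 to 11.4% in cluster 0 and 10.3 to 11.5% in those others. In all, 194 barcode sequences of cells occurred in more than 1 library, in 388 cells, with at most 13 shared by a pair of libraries. No library was left out.

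The phase labels that the authors deposited put 54.2% of cluster 0 in G1, 43.5% in S and 2.33% in G2/M. By library, 50.6 to 62.7% were in G1 and 35.7 to 46.5% in S, with G1 shares of 56.2 and 50.6% untreated, 60.5 and 60% with TGFB1, 51.9 and 51.3% with TGFBRi and 62.7 and 55.8% with PI3Ki. In the other cells that are not primed, 27.02 to 50.9% were in G2/M, against 0.840 to 2.81% in cluster 0. By these calls the cells are in G1 or S, as the name G1/S says, but the calls do not show where in G1 they are, and the genes of the G1/S list did not move one way (9 of 43 higher and 15 lower in every library). The mixture of phases does not set cluster 0 apart, since cluster 2 had a like mixture of 55.8% G1 and 39.8% S and cluster 6 had 73.2% and 26.6%. The score for primed genes, a rank-based UCell score that the authors deposited, had a mean of 0.377 in cluster 0, against 0.456 and 0.442 in the primed clusters 4 and 10. Of the primed markers, AXL and NGFR were near the floor of detection in cluster 0, while a UMI of others was found in more cells. No cells that should lack these genes were in the libraries, so that a background share from free RNA cannot be set beside these shares. With every cell thinned to 5000 UMIs, an AXL UMI was found in 0.111% of cluster 0 cells and in 15.6% of primed cells (0.344% and 31.7% before thinning), and for NGFR these shares were 0.410% and 7.41% (0.887% and 12.4%). For NT5E they were 6.41% and 39.9% (18.3% and 65.7%), for FN1 12.4% and 97.4% (27.2% and 98.4%), for SERPINE2 49.2% and 92.5% (81.3% and 97.5%) and for VGF 62.6% and 51.5% (82.0% and 67.6%).

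The 7 genes that mark cluster 0 are CDCA7, HRK, POU3F1, UNG, MYC, PCDH7 and FABP7. CDCA7 is a target of E2F and MYC that works with the chromatin remodeller HELLS, and UNG removes uracil from DNA. HRK is a BH3-only activator of apoptosis, POU3F1 is a POU transcription factor, PCDH7 is a protocadherin and FABP7 is a fatty acid-binding protein of neural crest and melanoma cells. Levels are given as CPM, the counts of a gene per 1000000 UMIs in the summed cells of a library. The clusters were called on these same counts, so that differences between clusters are descriptions and carry no test. All 7 were higher in cluster 0 than in the sum of the other cells that are not primed in each of the 8 libraries, by a mean of 1.32-fold (FABP7) to 1.64-fold (CDCA7).

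CDCA7 had 64.0 and 70.9 CPM in cluster 0 of the untreated libraries r1 and r2, 48.3 and 45.5 with TGFB1, 68.0 and 62.0 with TGFBRi and 59.9 and 63.5 with PI3Ki. In the other cells that are not primed it lay between 34.1 and 39.96 CPM. The 2 TGFB1 libraries were lowest in cluster 0 and yet above all 8 values outside it. MYC had 213 and 219 CPM in untreated cluster 0. Over the 8 libraries it had 136 to 230 CPM in cluster 0 and 104 to 156 CPM in the other cells, so that these ranges overlapped. HRK had 37.0 and 32.3 CPM in untreated cluster 0 and 20.5 and 20.3 CPM in the other cells of those libraries. FABP7 separated the cells least, with 85.7 against 66.9 CPM in untreated r1 and 85.1 against 79.8 CPM in PI3Ki r1. Taken cluster by cluster, over the 11 clusters that are not primed and libraries with at least 20 of their cells, CDCA7 was highest in cluster 0, with a mean of 60.3 ± 8.95 CPM (SD, n = 8 libraries), followed by cluster 2 with 53.3 CPM. MYC was highest in cluster 5 (251 CPM), a G2/M cluster, with cluster 0 next at 193 ± 33.7 CPM (SD, n = 8), and PCDH7 and FABP7 were highest in cluster 6, with 48.3 and 126 CPM against 33.4 and 89.8 CPM in cluster 0. HRK was highest in cluster 11 (39.1 CPM, from the 2 libraries that held at least 20 of its cells). It had 35.5 CPM in cluster 6 (6 libraries) and 33.5 CPM in cluster 0 (8 libraries). Over the same 6 libraries HRK did not separate these clusters, with 35.6 CPM in cluster 0 and 35.5 CPM in cluster 6. POU3F1 and UNG were slightly higher in cluster 2, with 37.2 and 49.5 CPM, than in cluster 0, with 35.1 and 48.3 CPM, which is within the spread between libraries (SD 8.47 and 3.56, n = 8).

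At the level of single cells the markers overlapped widely. With every cell thinned to 5000 UMIs, which left out 33 cells of the experiment, a CDCA7 UMI was found in 27.01% of cluster 0 cells, 15.9% of the other cells that are not primed and 10.1% of primed cells (58.4%, 42.1% and 23.3% before thinning). For HRK the shares were 15.7%, 10.2% and 1.72% in the same order (40.9%, 29.7% and 5.004% before thinning). A MYC UMI was found in 58.6% of cluster 0 cells and 43.8% of the others (89.1% and 76.0% before thinning). A thinned cluster 0 cell had a UMI of 1.90 of the 7 markers on average, the other cells that are not primed of 1.32 and primed cells of 0.540 (3.85, 3.04 and 1.15 before thinning). No thinned cell had all 7, and 9.80% of thinned cluster 0 cells had none. Before thinning 176 cluster 0 cells had all 7 and 0.876% had none.

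**Figure D1:**
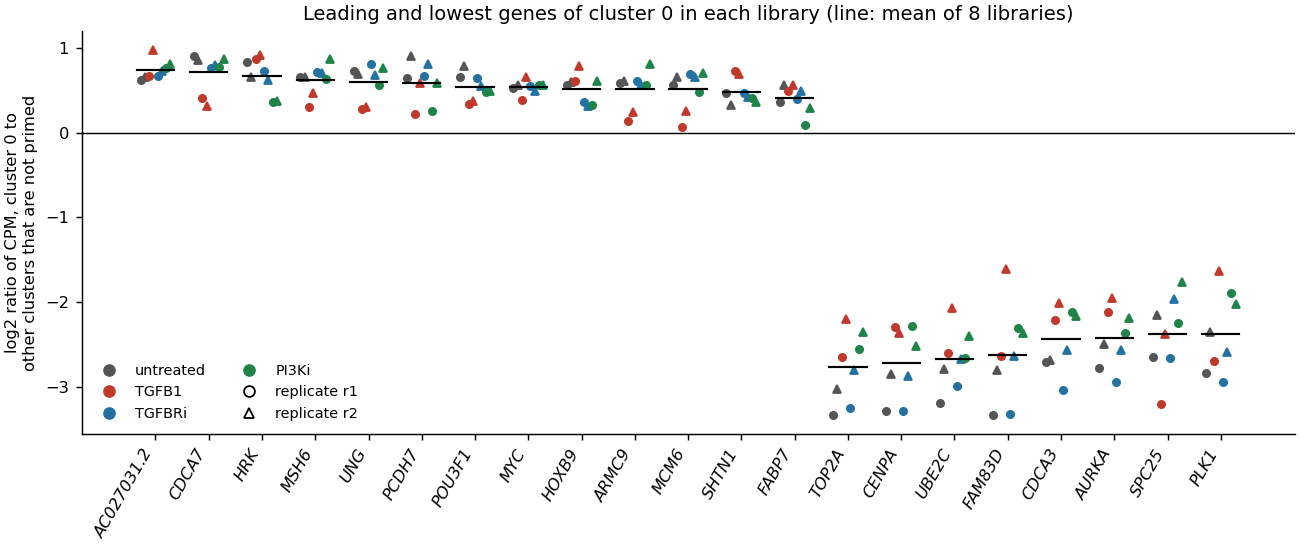
Log2 ratio of CPM in cluster 0 to CPM in the other clusters that are not primed (vertical axis) for the 12 leading genes, FABP7 and the 8 lowest genes (horizontal axis), with 1 point per library and a line at the mean of the 8 libraries. The leading genes lie within 1 log2 unit above 0, with the TGFB1 libraries lowest for CDCA7, MSH6, UNG, MCM6, POU3F1 and ARMC9, while the lowest genes lie between -1.61 and -3.34.

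More genes were lower than higher in cluster 0 by 1.5-fold, while by direction alone the numbers were closer and depended on the cells and genes compared. Of 5663 genes that reached 20 CPM in cluster 0 or in the other cells, 620 (10.9%) were higher in cluster 0 in all 8 libraries and 736 (13%) were lower in all 8. By direction alone, 383 were higher and 348 lower among genes of at least 50 CPM, and among G1 cells 419 were higher and 170 lower. With a ratio of at least 1.5 in every library, 1 gene (0.0177%) was higher and 85 (1.5%) were lower. The single gene was AC027031.2, an unnamed transcript, with 22.7 to 33.3 CPM in cluster 0 and 12.7 to 19.8 CPM in the other cells, a mean of 1.67-fold. Within the 4 libraries of r1 or of r2 alone, AC027031.2 was again the 1 gene, and 107 or 91 genes were lower. In the untreated libraries alone 8 genes were higher by that measure, AC027031.2, ARMC9, CDCA7, HRK, MSH6, PCDH7, POU3F1 and UNG, and 157 were lower. Without the TGFB1 libraries, in which cluster 0 was small, AC027031.2, CDCA7 and MSH6 were higher and 97 genes lower. With a ratio at least 25% above 1, 6 genes were higher in all 8 libraries, namely AC027031.2, HRK, POU3F1, MYC, SHTN1 and CDK6.

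The 12 genes with the highest mean ratio among those higher in every library were AC027031.2, CDCA7, HRK, MSH6, UNG, PCDH7, POU3F1, MYC, HOXB9, ARMC9, MCM6 and SHTN1. MSH6, which recognises base mismatches left by replication, had 115 to 145 CPM in cluster 0 and 78.1 to 94.9 CPM in the others (1.54-fold). MCM6, a subunit of the replicative helicase, had 67.6 to 94.6 CPM against 54.2 to 64.9 CPM (1.42-fold), with the 2 smallest ratios, 0.07 and 0.26 on the log2 scale, in the TGFB1 libraries. HOXB9, a homeobox factor, had 24.7 to 31.7 against 16.0 to 24.6 CPM, ARMC9, a protein of the ciliary base, 55.1 to 67.5 against 35.8 to 52.5 CPM, and SHTN1, a linker of actin and adhesion in neurons, 42.1 to 55.1 against 28.1 to 39.7 CPM. None of them reached a mean of 2-fold.

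The 8 genes with the lowest mean ratio among those lower in every library were TOP2A, CENPA, UBE2C, FAM83D, CDCA3, AURKA, SPC25 and PLK1, which act in chromosome condensation, at the kinetochore and spindle or in the degradation of mitotic proteins. TOP2A, topoisomerase IIα, had 17.7 to 29.7 CPM in cluster 0 and 109 to 187 CPM in the other cells that are not primed, a mean log2 ratio of -2.77 ± 0.41 (SD, n = 8 libraries). PLK1, a mitotic kinase, had 6.59 to 15.8 CPM against 39.1 to 70.4 CPM. MKI67, the proliferation antigen, was still at 70.4 to 98.2 CPM in cluster 0, against 235 to 416 CPM outside it. Both ranges are those of the 8 libraries, and they did not overlap for any of TOP2A, PLK1 and MKI67.

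Gene lists describe the same contrast by function. Of 37 measured mitosis genes, 36 were lower in cluster 0 in every library, with a median log2 ratio of -1.78 beside -0.0056 over all genes. Of 11 measured histone genes (34 on the list) that depend on replication, 10 were lower in every library and none higher (median -1.60), for example HIST1H4C with a mean of 407 CPM in cluster 0 and 1304 CPM outside it. Histone genes are near-identical copies of each other, so that their single values are uncertain. The list of G1/S and DNA replication, which holds CDCA7, UNG and MCM6, did not move one way, with 9 of 43 measured genes higher, 15 lower and 19 mixed (median -0.07). DTL, a substrate receptor of the CRL4 ubiquitin ligase that is not on this list, was 1.40-fold higher on average. Among the members of the list, UHRF1, which binds hemimethylated DNA, was 1.39-fold higher on average. RRM2 and TYMS, which supply deoxynucleotides, were lower in every library, with mean log2 ratios of -1.24 and -0.63.

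The list of the MYC network and ribosome biogenesis, which holds MYC itself, had 17 of 29 measured genes higher in every library and 1 lower, all by small amounts (median 0.17 and largest value 0.54, that of MYC). NPM1, a nucleolar chaperone, had 1662 CPM in cluster 0 and 1402 CPM outside it, and NCL, nucleolin, 1598 and 1360 CPM. Of 9 measured G1 cyclins and CDK inhibitors 2 were higher in every library and 4 lower, and CDK6, the partner of D cyclins, was the highest, with 114 against 82.4 CPM (1.38-fold). Of the BCL2 family, which holds HRK, 2 of 8 were higher and 3 lower. Of 24 melanocyte genes 4 were higher and 4 lower (median 0.02), of 21 genes of sterol and fatty acid synthesis 1 was higher and 10 lower (-0.18), and of 15 genes of ERK output 1 was higher and 7 lower (-0.18). Of 15 genes of FOXO and PI3K feedback 4 were higher and 1 lower (0.05), of 12 genes of ATF4 and stress 0 were higher and 3 lower (-0.17), and of 10 TGF-β targets 0 were higher and 1 lower (-0.15). Of 4 measured primed markers 2 were lower in every library and 0 higher (-0.87), and all 7 interferon genes were mixed (-0.03). Beside the 13% of all genes that were lower in every library, every list but those of MYC, TGF-β targets, FOXO and interferon had a larger share of such members. The lists of MYC, FOXO, BCL2, G1 cyclins, G1/S and melanocyte genes had a larger share of higher members than the 10.9% over all genes.

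Within cluster 0, the G1 and the S cells differed in replication genes, some mitotic genes and part of the markers. From G1 to S cells, CCNE2, a cyclin of S phase entry, went from a mean of 2.59 to 31.5 CPM (10.6-fold), EXO1, an exonuclease of mismatch repair, from 2.92 to 32.5 CPM (9.65-fold) and RRM2 from 13.9 to 90.5 CPM (6.42-fold). UNG went from 26.0 to 77.1 CPM (2.96-fold), MCM6 from 51.4 to 126 CPM (2.45-fold), CDCA7 from 42.7 to 82.3 CPM (1.95-fold) and MSH6 from 96.8 to 179 CPM (1.84-fold), each in 8 of 8 libraries. Mitosis genes went both ways. Of 24 measured, 6 were higher in the G1 cells and 9 in the S cells in 8 of 8 libraries, beside 9.49% and 14.7% of all 5679 genes (median log2 ratio of S to G1 0.37, beside 0.0096 over all genes). Higher in G1 were for example CCNB1, cyclin B1, with 55.2 CPM in G1 and 22.2 CPM in S cells, PTTG1, securin, with 371 and 210 CPM, CDC20 with 51.8 and 28.0 CPM and CCNB2 (2.01-fold higher in G1). HRK, PCDH7, FABP7, HOXB9, ARMC9, SHTN1 and AC027031.2 had nearly equal means in the 2 phases, with log2 ratios between -0.06 and 0.08. POU3F1 went the other way in 8 of 8 libraries, with 40.9 CPM in G1 cells and 28.0 CPM in S cells (0.698-fold), and MYC had 205 and 178 CPM. The phase labels were themselves made from expression of cycle genes, so that these values describe the classes and carry no test. UNG, MCM6, CDCA7 and MSH6 were thus high in S cells, and the other leading genes were not.

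**Figure D2:**
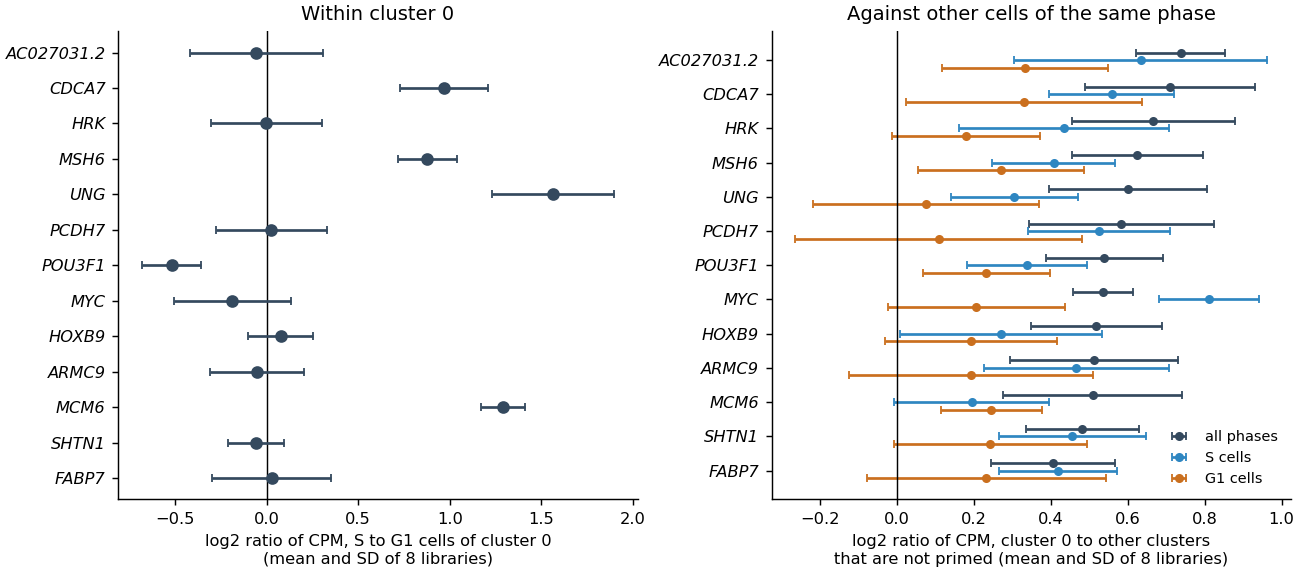
Left, log2 ratio of CPM in S to G1 cells of cluster 0 (horizontal axis) for the 12 leading genes and FABP7, as mean and SD of 8 libraries. Right, log2 ratio of CPM in cluster 0 to the other clusters that are not primed for all cells, S cells and G1 cells. UNG, MCM6, CDCA7 and MSH6 are high in S cells, and the ratios to other G1 cells are the smallest for 12 of the 13 genes (MCM6 is the exception).

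When G1 cells were compared with G1 cells, the 12 leading genes came closer to the other clusters, and among S cells all but MYC did. Among G1 cells, 0 of 5457 genes were 1.5-fold higher and 0 were 1.5-fold lower in every library, and CDCA7 had a mean log2 ratio of 0.33 ± 0.31 (SD, n = 8) in place of 0.71 ± 0.22. UNG had 0.08 ± 0.29 in place of 0.60 ± 0.21 and PCDH7 0.11 ± 0.37 in place of 0.58 ± 0.24, both with libraries on either side of 0. Among S cells, 1 of 5716 genes was 1.5-fold higher in every library, MYC, with a log2 ratio of 0.81 ± 0.13 against 0.54 ± 0.08 over all cells, and 35 were lower. Among G1 cells MYC had 0.21 ± 0.23, with libraries on either side of 0. HRK, POU3F1, AC027031.2 and MCM6 were the leading genes that were higher in all 8 libraries among G1 cells too.

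Cluster 1 is the next largest cluster, with 6483 cells, of which 54.5% were in S and 44.9% in G2/M. Against it, 13 of 5756 genes were at least 1.5-fold higher in cluster 0 in all 8 libraries and 185 lower. MYC was highest, with 193 against 77.2 CPM (2.50-fold), followed by AHNAK, a large scaffold protein (2.31-fold), AC027031.2 (2.05-fold), GABPB1-AS1, an antisense transcript whose reads may not be separable from its partner (2.02-fold), and CDCA7 (1.98-fold). The lowest genes were histones, for example HIST1H1B with 59.4 against 614 CPM and HIST1H3D with 15.5 against 166 CPM. Of the 7 markers all were higher in cluster 0 in all 8 libraries, with the smallest ratios for UNG (1.39-fold) and FABP7 (1.30-fold).

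Cluster 2, with 4292 cells, was the most alike of the 4 clusters compared (1, 2, 3 and 6). Against it, 0 of 5616 genes were 1.5-fold higher in cluster 0 in every library and 5 were lower. VGF, a secreted neuropeptide precursor, had 455 CPM in cluster 0 and 4492 CPM in cluster 2, a ratio of 10.1 in favour of cluster 2. APOD, apolipoprotein D, followed with 13.0 against 51.6 CPM. Of the 7 markers, FABP7 (1.46-fold), PCDH7 (1.43-fold) and MYC (1.13-fold) were higher in cluster 0 in all 8 libraries. CDCA7, HRK, POU3F1 and UNG were mixed, with mean log2 ratios between -0.08 and 0.16.

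Cluster 3 came mostly from the TGFB1 libraries (2182 and 1619 cells) and cluster 6 mostly from the PI3Ki libraries (1104 and 1135 cells). Each was compared in the 6 libraries that held at least 20 of its cells. Among these, the untreated and PI3Ki libraries held only 23 to 59 cells of cluster 3, and the untreated and TGFBRi libraries 39 to 129 cells of cluster 6. Against cluster 3, which had 4007 cells, 3 of 5814 genes were 1.5-fold higher in every library and 63 lower. FN1, fibronectin, had 53.2 CPM in cluster 0 of those libraries and 1011 CPM in cluster 3, and THBS1, IGFBP7 and IL11 were also among the lowest. Of the 7 markers, POU3F1 (2.48-fold, with an SD of 1.14 on the log2 scale), HRK (2.06-fold), MYC (1.44-fold), CDCA7 (1.43-fold) and UNG (1.40-fold) were higher in cluster 0 in all 6, while FABP7 (1.24-fold) and PCDH7 (0.794-fold) were mixed. Against cluster 6, which had 2531 cells, 126 of 5563 genes were 1.5-fold higher in cluster 0 in every library and 21 lower. The highest were CDC20, an activator of the anaphase-promoting complex (5.23-fold), CDKN3 (4.96-fold), BIRC5, survivin (4.38-fold) and MKI67 (3.73-fold), so that these mitotic genes were higher in cluster 0 than in cluster 6, while MKI67 was lower there than in the other clusters together. ID3, a dominant-negative helix-loop-helix protein, had 44.02 CPM in cluster 0 and 116 CPM in cluster 6, and MXD4, a partner of MAX that opposes MYC, had 12.9 and 37.5 CPM.

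A separate experiment of the series profiled untreated WM989 cells, grown from a well of mixed and a well of EGFR/NGFR-high cells and deposited as 1 sample that the cell annotation divides into r1 and r2. Whether these are separate cultures is not stated, so that they are given as values. Its clusters were called apart from those described so far, on other cells. A shared cluster number thus does not make 2 clusters the same class of cells, and whether the 2 clusters numbered 0 match was not tested. The 12 leading genes were all in its table, and 11 passed 20 CPM. Of these, 10 were higher in both r1 and r2 of its own cluster 0 (1268 and 893 cells) than in its other clusters that are not primed, beside 44% of the 6489 genes of that level. CDCA7, MCM6, MSH6, SHTN1 and UNG had their highest level among those clusters in that cluster, for example UNG with 36.9 and 57.9 CPM (1.9998-fold over the others) and MCM6 with 68.5 and 99.9 CPM (1.99-fold). HRK was 1.36-fold, MYC 1.14-fold and PCDH7 1.08-fold there, and PCDH7 differed in direction between r1 and r2. MYC, PCDH7, HRK, POU3F1, AC027031.2, ARMC9 and HOXB9 were each highest in some other cluster. AC027031.2 had 23.9 CPM in cluster 0 of that experiment (1.24-fold over the others) and 27.3 CPM in its cluster 4. FABP7 had a ratio of 1.02 with r1 and r2 on either side of 1.

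The promoters of the leading genes were searched for the letters of E2F sites, since E2F factors govern genes of this phase. Sequences are those of RefSeq on GRCh38.p14, from 250 bases before to 50 after 1 start site per gene, and 10 of the 13 leading and marker genes had one. For MSH6 and SHTN1 this start lies well inside the longer span that GENCODE gives the gene, and other starts were not searched. The motifs were TTTGGCGC, TTTCGCGC, TTTGCCGC and TTTCCCGC on both strands, where overlapping matches count once per promoter. CDCA7, MSH6 and MCM6 held a match, and their promoters are shown because they are the leading genes with both a match and a higher level in S than in G1 cells. Capitals mark the matches. The windows are chr2:173354622-173354921 on the plus strand for CDCA7, chr2:47782895-47783194 on the plus strand for MSH6 and chr2:135876394-135876693 on the minus strand for MCM6.
CDCA7: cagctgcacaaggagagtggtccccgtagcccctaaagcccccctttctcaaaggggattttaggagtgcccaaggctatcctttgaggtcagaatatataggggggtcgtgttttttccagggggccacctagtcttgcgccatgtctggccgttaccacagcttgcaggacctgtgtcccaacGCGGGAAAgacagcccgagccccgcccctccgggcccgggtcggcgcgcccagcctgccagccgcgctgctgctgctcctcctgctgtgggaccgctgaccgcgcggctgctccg
MSH6: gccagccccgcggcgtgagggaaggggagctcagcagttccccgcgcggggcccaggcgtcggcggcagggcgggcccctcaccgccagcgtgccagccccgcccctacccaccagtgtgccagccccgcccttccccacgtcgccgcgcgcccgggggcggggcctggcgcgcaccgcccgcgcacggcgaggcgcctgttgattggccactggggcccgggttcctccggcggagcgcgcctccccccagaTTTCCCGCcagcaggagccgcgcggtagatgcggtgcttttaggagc
MCM6: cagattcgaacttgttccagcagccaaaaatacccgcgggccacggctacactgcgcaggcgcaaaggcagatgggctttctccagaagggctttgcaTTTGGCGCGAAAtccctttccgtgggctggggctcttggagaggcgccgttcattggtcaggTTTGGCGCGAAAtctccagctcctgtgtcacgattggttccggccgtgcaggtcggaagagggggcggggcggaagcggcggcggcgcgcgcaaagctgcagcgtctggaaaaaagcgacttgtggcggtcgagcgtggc
CDCA7 has GCGGGAAA, the other strand of TTTCCCGC, 65 bases before the start. MSH6 has TTTCCCGC at base 3 after the start. MCM6 has a pair of overlapping matches, TTTGGCGC and GCGCGAAA, at both of 2 places between 152 and 86 bases before the start.

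A match was found in 3 of 10 promoters of the leading and marker genes (30.0%), in 7 of 32 promoters of genes with a mean ratio at least 25% above 1 that were higher in every library (21.9%) and in 22 of 42 of the G1/S list (52.4%). It was found in 295 of 4616 promoters of genes with at least 20 CPM (6.39%) and in 908 of all 27305 promoters (3.33%). UNG, HRK, POU3F1, PCDH7, FABP7, ARMC9 and SHTN1 held none of these letters in this window. The E-box CACGTG, a motif that MYC can bind, was found in 1 of the 10, that of ARMC9, and in 11.6% of promoters of genes with at least 20 CPM. The authors' ATAC-seq peaks, called in 12 libraries of sorted WM989 cells, overlapped all 10 promoters in all 12 libraries, while 47.2 to 49.6% of all promoters held a peak in a library. All 10 genes had at least 20 CPM, and the share with a peak among promoters of such genes was not determined. Whether the leading genes differ from them was thus not tested. These sorts were by EGFR and NGFR and not by cluster. In the 3 Mix libraries the fold enrichment at the promoter of CDCA7 was 22.8, 16.5 and 22.3, and at that of MSH6 63.6, 48.5 and 63.9.

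The treatment experiment asks how TGF-β and PI3K signals change the number of primed cells, and here the share of cluster 0 among the cells that are not primed was compared between its treatments. Cluster 0 nearly vanished with TGFB1. It made up 44.3% and 33.3% of the cells that are not primed in untreated r1 and r2 (1798 and 1173 cells), and 3.10% and 2.98% with TGFB1 (119 and 115 cells). The untreated share was 14.3 times the TGFB1 share in r1 and 11.2 times in r2. With PI3Ki it was 22.9% and 17.4% (877 and 996 cells), or 0.516 and 0.525 of the untreated share. With TGFBRi it was 42.4% and 29.5% (2166 and 1773 cells), or 0.956 and 0.888 of it. The TGFB1 and PI3Ki libraries lay below all untreated libraries, while the TGFBRi and untreated libraries overlapped.

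Means by treatment were 38.8% ± 7.81 untreated, 3.04% ± 0.0824 with TGFB1, 36.0% ± 9.08 with TGFBRi and 20.2% ± 3.83 with PI3Ki (SD, n = 2). The spread of the log odds over treatments was the largest of all 24 arrangements of the treatment labels within replicates (exact permutation test, p = 0.0417, the smallest p that this design allows). Single pairs of treatments were not tested and are given as values. The order TGFB1, PI3Ki, TGFBRi, untreated was the same in r1 and r2. Every treatment had a lower share in r2 than in r1.

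The order of treatments was the same within a phase. Among G1 cells alone, cluster 0 took 74.6% and 53.8% of untreated cells, 4.65% and 4.51% with TGFB1, 71.8% and 49.2% with TGFBRi and 33.0% and 22.2% with PI3Ki. Among S cells the untreated shares were 49.3% and 40.2% and the TGFB1 shares 3.57% and 3.57%. With primed cells in the denominator the shares were 43.3% and 31.8% untreated and 2.20% and 2.05% with TGFB1. In the TGFB1 libraries cluster 3 held 56.8% and 42.0% of the cells that are not primed, and in the PI3Ki libraries cluster 6 held 28.8% and 19.9%, while these clusters held at most 1.67% and 3.18% in the untreated libraries. The clusters were called on genes that respond to the treatments, so that a cell can leave cluster 0 by its response alone.

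As an alternative to the deposited clusters, cells were assigned again to the cluster mean they correlate with best. This used 4854 genes that were not called under any treatment within cluster 0, and returned 60.3% of cluster 0 cells to it. Over all cells that are not primed, 2665 genes were called for TGFB1 and 2170 for PI3Ki. Genes that respond outside cluster 0 could thus remain among the 4854, so that the assignment is not free of treatment response. The shares were then 30.1% and 21.6% untreated, 8.62% and 6.87% with TGFB1, 33.3% and 19.98% with TGFBRi and 22.2% and 13.995% with PI3Ki. The exact permutation p was 0.0833, so that the call was lost. The same assignment over all 5525 genes of that level, called or not, returned 68.5% of cluster 0 cells and also gave p = 0.0833 (exact permutation test), with 33.6% and 23.1% untreated, 7.60% and 5.29% with TGFB1, 35.7% and 22.6% with TGFBRi and 20.5% and 12.9% with PI3Ki. The call was thus lost with this assignment whether or not the genes called within cluster 0 were left out. The order of TGFB1 below PI3Ki below untreated held in both replicates and in both gene sets, with untreated shares 3.49 and 3.15 times those with TGFB1 over the genes not called and 4.42 and 4.36 times over all genes.

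**Figure D3:**
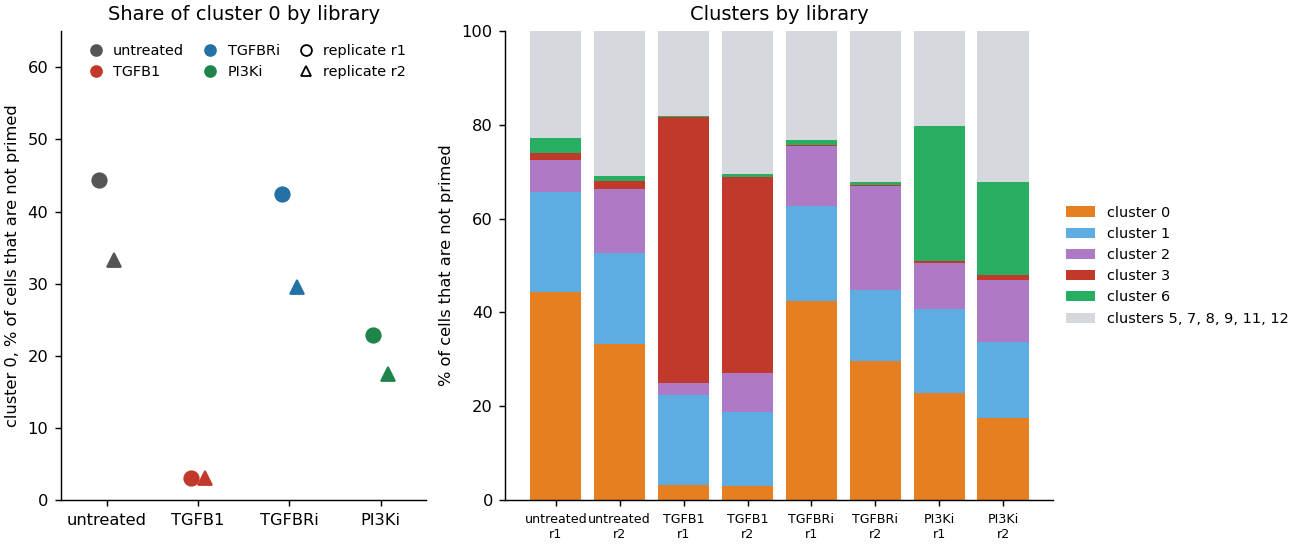
Left, percent of the cells that are not primed that belong to cluster 0 (vertical axis) by treatment, with 1 point per library. Right, percent of those cells in clusters 0, 1, 2, 3 and 6 and in the remaining clusters for each library. Cluster 0 falls from 44.3 and 33.3% untreated to 3.10 and 2.98% with TGFB1, where cluster 3 holds 56.8 and 42.0%.

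Within cluster 0, the cells that kept this label still differed by treatment. Counts were summed over the cluster 0 cells of each library and tested with edgeR's quasi-likelihood test with replicate as a block, and all p-values given for it are Benjamini-Hochberg adjusted over the genes tested, with a threshold of 0.05. Of 14870 genes, 197 (1.32%) were called for TGFB1, 107 up and 90 down, 484 (3.25%) for TGFBRi, 226 up and 258 down, and 676 (4.55%) for PI3Ki, 280 up and 396 down. Without the block these counts were 97, 274 and 355. The 3 comparisons share the untreated libraries and are therefore given side by side. The TGFB1 libraries held 119 and 115 cluster 0 cells, so that the counts do not rank the treatments by effect. Only cells that kept the label were tested. Which cells kept it and a response within them cannot be told apart for any gene tested this way.

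The counts depended on single libraries. For TGFB1 they were 52 and 71 without TGFB1 r1 and r2, 129 and 92 without untreated r1 and r2, and 388 and 376 without TGFBRi r1 and r2. For TGFBRi they were 1230 without TGFBRi r1, and 235 and 173 without untreated r1 and r2. For PI3Ki they were 186 and 142 without PI3Ki r1 and r2, 244 and 205 without untreated r1 and r2, and 1462 and 1454 without TGFBRi r1 and r2. The genes named next as holding throughout were past the threshold in the main result, without each library in turn and under each of the other alternatives within cluster 0.

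With TGFB1, FN1, PMEPA1 and SKIL rose in cluster 0, while 22 of 25 listed TGF-β targets did not pass. Of the 25, 10 had an unadjusted p under 0.05 (edgeR). The median log2 fold change of this list was 0.30, beside -0.0211 over all genes. FN1 had 25.7 and 35.3 CPM untreated and 90.6 and 122 CPM with TGFB1, and the groups did not overlap (log2 fold change 1.77, SE 0.11, adjusted p = 1.34e-17, edgeR). FN1 is also a gene that sets cluster 3 apart (1011 CPM there), so that its value in cluster 0 depends on which cells kept the label. PMEPA1, an inhibitor of TGF-β signalling that is itself induced by it, had 3.01 and 4.01 CPM untreated and 33.0 and 26.1 CPM with TGFB1 (8.39-fold, adjusted p = 2.15e-15, edgeR). IGFBP5 (2.63-fold), TXNIP, a brake on glucose uptake (2.45-fold), GLA, a lysosomal galactosidase (2.01-fold), SLC7A5, an amino acid transporter (1.94-fold), SERPINE2, a protease inhibitor (1.74-fold), and IER3 (1.73-fold) also rose. All 8 of these genes held throughout. EEF1A2, SH3BP1 and FRZB rose by 2.05-fold to 2.13-fold, and each was lost without 1 of the TGFB1 libraries. SKIL, a repressor of SMADs, rose 3.38-fold from 3.36 and 4.93 CPM to 14.8 and 13.3 CPM, but not without TGFB1 r1 (adjusted p = 0.173, edgeR).

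Of the 7 markers, 4 fell with TGFB1 within cluster 0, beside 1.32% called of all 14870 genes tested, those of low level included. The markers are genes that set the cluster apart, and 119 and 115 cells kept its label with TGFB1. Which cells kept the label and a response within them cannot be told apart here. MYC had 213 and 219 CPM untreated and 136 and 179 CPM with TGFB1 (log2 fold change -0.49, SE 0.09, adjusted p = 0.00103, edgeR). FABP7 (-0.60, adjusted p = 0.00221), CDCA7 (-0.54, adjusted p = 0.0112) and POU3F1 (-0.62, adjusted p = 0.0205) fell as well, each with the 2 TGFB1 libraries below both untreated ones. None of the 4 held throughout. MYC was lost without TGFB1 r1 (adjusted p = 0.394), FABP7 without TGFB1 r1 or r2 (0.166 and 0.0972), CDCA7 without TGFB1 r1 or r2 or untreated r2 (0.121, 0.303 and 0.126) and POU3F1 without the same 3 libraries (0.464, 0.154 and 0.106). MYC, CDCA7 and POU3F1 were also lost among S cells alone, and FABP7 among G1 cells alone. HRK, UNG and PCDH7 did not pass the threshold, with log2 fold changes of -0.38, -0.27 and -0.16.

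The largest falls with TGFB1 were in ZCCHC24, ZNF766, CERS6, a ceramide synthase, GK5 and SPG11, by 2.12-fold to 2.44-fold. ZCCHC24 had 24.8 and 24.9 CPM untreated and 12.6 and 7.88 CPM with TGFB1. It was lost without TGFB1 r2 (adjusted p = 0.0875, edgeR), and CERS6 without TGFB1 r1 (0.464). ZNF766 and SPG11 were lost without TGFB1 r1 or r2, and GK5 without those or untreated r2 (adjusted p up to 0.310, 0.373 and 0.690, edgeR). CDKN2A, a CDK inhibitor, had 299 and 317 CPM untreated and 249 and 184 CPM with TGFB1 (log2 fold change -0.54). This was lost without TGFB1 r2 or untreated r2 (adjusted p = 0.190 and 0.137, edgeR). Each of these 6 falls was thus lost without at least 1 library.

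With TGFBRi, ID3, ID1, PMEPA1 and SKIL, which TGF-β or BMP signals are known to induce, fell, while 17 of 25 listed TGF-β targets did not pass. ID3 had 33.8 and 35.4 CPM untreated and 6.31 and 5.79 CPM with TGFBRi (log2 fold change -2.48, SE 0.10, adjusted p = 2.09e-26, edgeR). COL9A3, a collagen chain, had 69.4 and 65.01 CPM untreated and 18.7 and 16.5 CPM with TGFBRi (-1.91, adjusted p = 2.56e-26). ID1 fell 5.93-fold, from 7.19 and 8.52 CPM to 1.12 and 1.52 CPM. ATP6V0D2, a subunit of the proton pump, fell 1.94-fold, UCN2, a urocortin, 1.79-fold and NAV2 1.78-fold. These 6 genes, from ID3 to NAV2, held throughout, as did the transcripts LINC01918 and LINC01711. PMEPA1 fell 3.98-fold, from 3.01 and 4.01 CPM to 0.765 and 0.965 CPM, which is near the floor. SKIL fell 3.66-fold, from 3.36 and 4.93 CPM to 0.765 and 1.52 CPM. PMEPA1 and SKIL were lost only with 115 cells per library, the number of the smallest. Both were thus higher with the ligand and lower with the receptor inhibitor than in the same untreated libraries, in cells of the same cluster. This did not hold for ID3 and ID1, which were not called with TGFB1. With the ligand ID3 had 30.2 and 44.2 CPM, on either side of its untreated values, and ID1 had 3.84 and 4.85 CPM, below its untreated values.

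Rises with TGFBRi were smaller. BAALC had 11.6 and 13.6 CPM untreated and 21.3 and 26.1 CPM with TGFBRi (1.91-fold, adjusted p = 1.08e-10, edgeR), IGFBP2 rose 1.59-fold and VGF 1.54-fold, and these 3 held throughout. FRZB (1.87-fold), ID4 (1.70-fold), SLC7A11, a cystine transporter (1.67-fold), and NUPR1 (1.61-fold) rose and were lost only with 115 cells per library. Of the 7 markers, MYC fell by 0.30 on the log2 scale (adjusted p = 0.00797, edgeR), FABP7 rose by 0.37 (adjusted p = 0.00115, edgeR) and PCDH7 rose by 0.30 (adjusted p = 0.0214, edgeR). MYC was lost without untreated r1 or r2 (adjusted p = 0.138 and 0.226), FABP7 without TGFBRi r1 or untreated r1 (0.137 and 0.215), and PCDH7 without any of 5 libraries (TGFBRi r1 and both untreated and both PI3Ki libraries, up to 0.445). CDCA7, HRK, POU3F1 and UNG had log2 fold changes between -0.12 and 0.04 and did not pass.

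With PI3Ki, the largest falls included BNIP3 and DDIT4. BNIP3, a mitophagy receptor, had 211 and 241 CPM untreated and 76.0 and 87.5 CPM with PI3Ki (log2 fold change -1.44, SE 0.07, adjusted p = 9.94e-22, edgeR). DDIT4, an inhibitor of mTORC1, had 144 and 152 CPM untreated and 59.4 and 55.9 CPM with PI3Ki (-1.33, adjusted p = 6.91e-20). DIPK1C (2.39-fold), ME1, malic enzyme (2.16-fold), CITED1 (2.01-fold), GBE1, glycogen branching enzyme (1.89-fold), and LDHA, lactate dehydrogenase (1.77-fold), fell too. LDHA went from 863 and 941 CPM to 491 and 509 CPM. All of these genes held throughout.

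ID1, ID2 and ID3, inhibitors of differentiation, rose with PI3Ki, while ID4 had 14.5 and 14.1 CPM with PI3Ki and 14.5 and 15.4 CPM untreated. ID3 had 84.3 and 98.5 CPM with PI3Ki, against 33.8 and 35.4 CPM untreated (2.69-fold, adjusted p = 2.1e-20, edgeR), and ID1 (3.20-fold) and ID2 (2.26-fold) rose with it. APOD (2.06-fold), HIPK2, a kinase that acts on p53 (1.58-fold), and BAAT (1.56-fold) also rose, and these 6 genes held throughout. TXNIP rose 1.66-fold, C11orf96 1.70-fold and MTURN 1.62-fold, and these 3 were lost only with 115 cells per library. Of the 7 markers only PCDH7 passed, with 41.0 and 39.9 CPM against 29.1 and 30.6 CPM (log2 fold change 0.47, adjusted p = 0.000107, edgeR), and it was lost among S cells alone. The other 6 lay between -0.09 and 0.13.

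**Figure D4:**
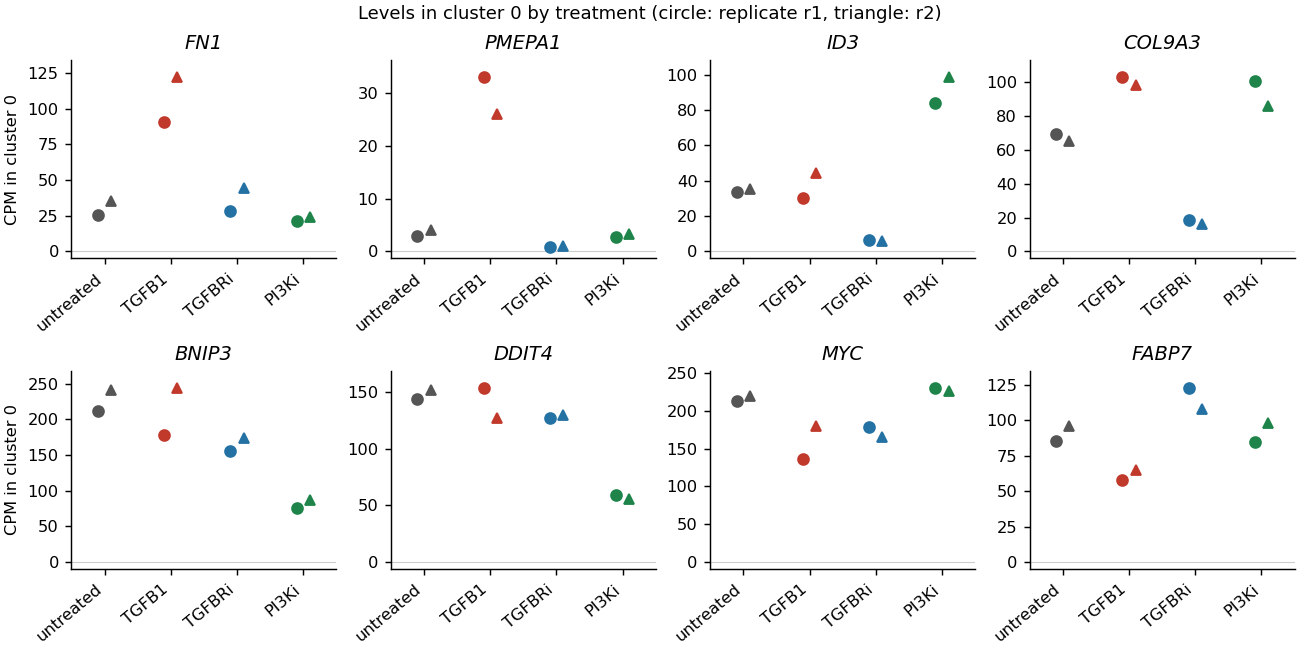
CPM in cluster 0 (vertical axes, each from 0) of 8 genes by treatment, with 1 point per library (circles r1, triangles r2). FN1 and PMEPA1 are highest with TGFB1, ID3 and COL9A3 are lowest with TGFBRi, BNIP3 and DDIT4 are lowest with PI3Ki, and MYC and FABP7 lie lower with TGFB1 than untreated.

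The lists show which functions the called genes of cluster 0 belong to, beside 1.32% called over all genes for TGFB1, 3.25% for TGFBRi and 4.55% for PI3Ki. Of 52 genes of G1/S and DNA replication, 0 rose and 2 fell with TGFB1 (CDCA7 and MCM4), 0 rose or fell with TGFBRi (edgeR, with 8 at an unadjusted p under 0.05), and 1 fell with PI3Ki (POLD3, a subunit of DNA polymerase delta). Of 40 mitosis genes, 1 was called in all, AURKA, which fell with PI3Ki (4, 3 and 8 at an unadjusted p under 0.05 with TGFB1, TGFBRi and PI3Ki). Of 17 histone genes 0 were called with TGFB1 and TGFBRi (edgeR, with 5 and 3 at an unadjusted p under 0.05), and with PI3Ki HIST1H3B and HIST1H1B fell while HIST1H2AC rose. The median log2 fold change of the G1/S list was -0.20 with TGFB1, 0.05 with TGFBRi and -0.06 with PI3Ki, beside -0.0211, 0.0051 and 0.0013 over all genes.

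Of 25 TGF-β targets tested, 10, 13 and 11 had an unadjusted p under 0.05 with TGFB1, TGFBRi and PI3Ki (edgeR). Past the threshold, 3 rose with TGFB1 (PMEPA1, FN1 and SKIL) and 0 fell. With TGFBRi 8 fell and 0 rose (ID1, ID3, PMEPA1, SKIL, SMAD6, TGIF1, ID2 and BHLHE40). With PI3Ki 5 rose (ID1, ID3, ID2, CCN2 and CDKN2B) and 2 fell (FN1 and ITGB5). Of 18 primed markers, 4 rose with TGFB1 (FN1, SERPINE2, FOSL1 and VGF), 2 rose with TGFBRi (JUN and VGF) and 4 fell with PI3Ki (LOXL2, VEGFA, NT5E and FN1). JUN was near the floor, with 1.57 and 2.09 CPM untreated and 2.23 and 3.91 CPM with TGFBRi. VGF did not mark primed cells here. A VGF UMI was found in a larger share of cluster 0 than of primed cells, and cluster 2, which is not primed, had 4492 CPM. NT5E, the surface marker CD73, went from 13.6 and 19.3 CPM to 9.81 and 13.999 CPM with PI3Ki, where the groups overlapped, and was lost without any of these 4 libraries (adjusted p up to 0.249, edgeR). FN1 thus rose with TGFB1 and fell with PI3Ki, where the call was lost without PI3Ki r2 or either untreated library (adjusted p up to 0.672, edgeR).

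Of 26 melanocyte genes, 1 rose and 3 fell with TGFB1, 4 rose and 3 fell with TGFBRi, and 8 rose and 2 fell with PI3Ki. DCT, an enzyme of melanin synthesis, fell under all 3, and with PI3Ki it had 267 and 312 CPM against 397 and 415 CPM untreated (adjusted p = 1.19e-05, edgeR). APOE, apolipoprotein E, rose under all 3 with the groups overlapping, and FABP7, a member of this list too, fell with TGFB1 and rose with TGFBRi. PMEL, MLANA and PAX3 were among the 8 that rose with PI3Ki. Melanocyte genes thus did not move as 1 block in cluster 0.

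Of 29 genes of sterol and fatty acid synthesis, 4 fell with TGFB1, SCD, FADS1 and FASN among them, 3 rose with TGFBRi, HMGCS1 and SQLE among them, and with PI3Ki 3 rose, CYP51A1 and FASN among them, and SCD fell. Of 18 genes of ATF4 and stress, SLC7A5 rose with TGFB1. With TGFBRi 6 rose (ATF3, SLC7A11, SESN2, DDIT3, TRIB3 and HSPA1A) and SLC7A5 fell. With PI3Ki HMOX1 rose and 4 fell (DDIT4, DDIT3, PHGDH and SHMT2). HSPA1A shares reads with its near-identical copy HSPA1B, and its value is uncertain.

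Of 28 genes of FOXO and PI3K feedback, TXNIP rose and FBXO32 fell with TGFB1, 5 rose and 1 fell with TGFBRi, and TXNIP and ERBB3 rose while DDIT4, TSC22D3 and IRS1 fell with PI3Ki. Of 35 genes of the MYC network and ribosome biogenesis, MXD1 rose and MYC fell with TGFB1, LDHA and MYC fell with TGFBRi, and MXD1 and ODC1 rose and LDHA fell with PI3Ki. Of 20 genes of ERK output, 2 rose and 1 fell with TGFB1, 3 rose and 1 fell with TGFBRi and 0 were called with PI3Ki (edgeR, with 8 at an unadjusted p under 0.05), where the adjusted p of IER3 was 0.0585. Of 17 G1 cyclins and CDK inhibitors, CDKN2A and CDK6 fell with TGFB1, CCND1 rose with TGFBRi and CDKN2B rose with PI3Ki. Of 15 genes of the BCL2 family 0 were called with TGFB1 (edgeR, with 3 at an unadjusted p under 0.05), BCL2L1 rose with TGFBRi and BCL2A1 with PI3Ki, and of 20 interferon genes 1 was called under each treatment, IFITM3 (down with TGFB1 and up with TGFBRi) and IFI6 (up with PI3Ki).

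Many of these list calls were lost when 1 library was left out. Leaving out each library in turn was followed for up to 4 called genes of each list. With TGFB1, PMEPA1, FN1, TXNIP, SERPINE2, IER3 and SLC7A5 kept their call each time. With TGFBRi this held for ID1, ID3, PMEPA1, SKIL, VGF, HMGCS1, SLC7A5 and SLC7A11. With PI3Ki it held for ID1, ID3, ID2, LDHA, DDIT4, TXNIP, DCT, TRPM1, APOE, LOXL2 and VEGFA. The other list genes followed were lost without at least 1 library, CDCA7, MCM4, POLD3 and AURKA of the cycle lists among them.

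Whether cluster 0 responded differently from cluster 1 was tested by the term for treatment by cluster, with library as a block. Of 14723 genes the term was called for 115 with TGFB1 (0.781%), 26 with TGFBRi (0.177%) and 469 with PI3Ki (3.19%). Without the replicate terms these counts were 87, 5 and 346. For TGFB1 the count was 53 without TGFB1 r1, 57 without untreated r1 and 190 without PI3Ki r1. For TGFBRi it was 1 to 9 without any one of the TGFBRi or untreated libraries and 42 or 43 without PI3Ki r1 or r2. For PI3Ki it was 156 without PI3Ki r2 and 112 or 109 without untreated r1 or r2. Here a negative term means a smaller rise, or a larger fall, in cluster 0.

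With TGFB1, CTSD, the lysosomal protease cathepsin D, had 436 and 404 CPM untreated and 455 and 463 CPM treated in cluster 0, but 442 and 480 CPM and then 758 and 907 CPM in cluster 1 (term -0.74, SE 0.05, adjusted p = 3.16e-28, edgeR). AEBP1, a factor of extracellular matrix, rose less in cluster 0, by 0.73 on the log2 scale, than in cluster 1, by 1.58 (term -0.86, adjusted p = 2.2e-26, edgeR). VGF went the other way, with 0.39 in cluster 0 and -0.37 in cluster 1 (term 0.75). AKR1A1, an aldehyde reductase, and S100A6 had terms of -0.47 and -0.30. These 5 genes held throughout, and cluster 0 had the smaller rise in 3 of them. The share of cluster 0 was 44.3 and 33.3% untreated and 3.10 and 2.98% with TGFB1. That of cluster 1 was 21.4 and 19.5% untreated and 19.2 and 15.8% with TGFB1. Which cells kept the label of cluster 0 and how they responded cannot be told apart in these terms. The 7 markers did not pass against cluster 1, with terms between -0.37 for CDCA7 and 0.13 for MYC. Against all other clusters that are not primed, CDCA7 (-0.55, adjusted p = 0.000451) and UNG (-0.47, adjusted p = 0.0121, edgeR) did. That pool differs between the groups, since cluster 3 held 56.8% and 42.0% of the cells that are not primed with TGFB1 and at most 1.67% untreated. A shift between clusters and a response within them cannot be told apart in such terms.

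With PI3Ki, the 5 genes with the smallest p all had negative terms. HSP90AA1, a heat shock protein, had 2590 and 2812 CPM untreated and 2264 and 2390 CPM treated in cluster 0, and 1892 and 2103 CPM and then 2076 and 2397 CPM in cluster 1 (term -0.42, adjusted p = 4.73e-25, edgeR). PRDX1, a peroxiredoxin (-0.39), AKR1A1 (-0.49), HSPA5, the chaperone BiP (-0.51), and HSPA1A (-1.10) followed. AKR1A1, PRDX1 and HSPA5 held throughout. Against all other clusters that are not primed in place of cluster 1, the term of HSP90AA1 was 0.0139 and that of HSPA1A missed the threshold (adjusted p = 0.05001, edgeR). FABP7 was the 1 marker past the threshold against cluster 1 (term -0.22, adjusted p = 0.026, edgeR), lost without PI3Ki r1 (0.404) or untreated r2 (0.831). Against all other clusters that are not primed FABP7 was called again (-0.36), and HRK (-0.48, adjusted p = 8.61e-09), PCDH7 (-0.45, adjusted p = 1.575e-07) and POU3F1 (-0.32, adjusted p = 0.000212, edgeR) were called as well. In that pool cluster 6, which had 35.5 CPM of HRK, 48.3 CPM of PCDH7 and 126 CPM of FABP7, held 28.8% and 19.9% of the cells that are not primed with PI3Ki and at most 3.18% untreated, so that the same limit applies.

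With TGFBRi, ID3 fell less in cluster 0 (-2.48) than in cluster 1 (-3.48), where it went from 57.9 and 64.98 CPM to 5.47 and 5.33 CPM (term 0.999, SE 0.15, adjusted p = 1.83e-06, edgeR). This was lost without TGFBRi r1 (adjusted p = 0.146). DDIT4 (-0.32), SLC27A3 (0.29), ISG15 (0.27), UBE2S (-0.19) and FABP7 (-0.24) were called as well. DDIT4 was lost without TGFBRi r1 or untreated r2, SLC27A3 and ISG15 without TGFBRi r2 or either untreated library, UBE2S without any of the TGFBRi and untreated libraries, and FABP7 without TGFB1 r1, TGFBRi r2 or either untreated library (adjusted p up to 0.475, 0.697, 0.595, 0.762 and 1.0). FABP7 was also lost against all other clusters that are not primed (-0.02). ID3 thus ended at much the same level in both clusters, 6.31 and 5.79 CPM in cluster 0 against 5.47 and 5.33 CPM, from a higher untreated level in cluster 1.

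**Figure D5:**
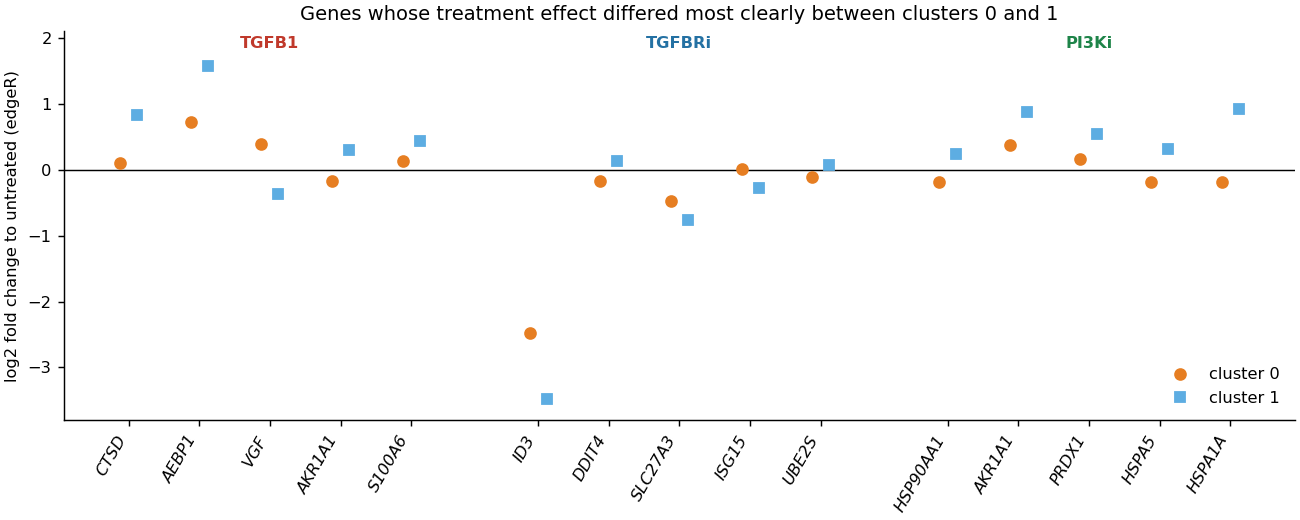
Log2 fold change to untreated (vertical axis) in cluster 0 (circles) and cluster 1 (squares) of the 5 genes with the smallest p for the term of treatment by cluster under each treatment. CTSD and AEBP1 rise more in cluster 1 with TGFB1, ID3 falls more there with TGFBRi, and HSPA1A, AKR1A1 and PRDX1 rise more there with PI3Ki.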

How the data were processed

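RNA was measured with the 10x Genomics 3′ V3.1 assay in 8 libraries of WM989 cells, 2 for each of 4 treatments. The authors deposited UMI counts that Cell Ranger made on hg38 (version not given in the sources used here), joined libraries without depth normalization, and filtered cells on genes detected, which removed likely doublets, and on mitochondrial content. No doublet caller was run here. They clustered cells in Seurat and deposited the cluster and phase labels, a percent of mitochondrial UMIs per cell and a score for primed genes. ATAC-seq peaks carry a fold enrichment, a ratio that the authors deposited per library from Bowtie2 2.3.4.1, SAMtools 1.1 and MACS2 2.1.1.20160309. An untreated experiment on the same line, deposited as 1 sample, was read for comparison. Lineage barcodes and the experiment that includes WM983B cells were not used here.

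Counts were summed over cells per library and cluster and given as CPM of those sums. Ratios between clusters used a pseudocount of 0.5 CPM and genes with at least 20 CPM, and carry no test. Treatment effects were tested with edgeR 4.0.16 (glmQLFit and glmQLFTest) under R 4.3.3, with TMM factors of 0.980 to 1.05, filterByExpr, a replicate block and 1 estimate of spread over all 8 libraries. SE is the log2 fold change divided by the square root of F. The term for treatment by cluster was fitted with library as a block. Shares were tested by an exact permutation test of treatment labels within replicates on the sum of squared treatment means of the log odds, a statistic without direction. The methods divide the cells of 1 well over the 4 plates, which pairs the libraries of a replicate, and deviations of same-numbered libraries correlated with r of 0.0141 to 0.135. Detection was compared with cells thinned to 5000 UMIs. DESeq2 1.42.0 was run as an alternative. Other steps used Python 3.11.15, numpy 2.4.6, scipy 1.17.1 and pandas 2.3.3, and figures matplotlib 3.10.9. The fits were tested on simulated counts with 200 changed genes, where for TGFB1 70.1% of 97 genes changed 3-fold but 3.03% of 99 genes changed 1.5-fold were recovered among 14838 genes. At 1.5-fold the shares were 13% with TGFBRi and 16% with PI3Ki (100 genes each, among 14847 and 14879). The simulation gave every gene the same fixed spread, which was not fitted to the measured counts. In those counts smaller changes were called, for example CCND1 with TGFBRi (1.19-fold) and POLD3 with PI3Ki (1.20-fold). The simulated shares therefore set no limit of detection for the measured genes.

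The cluster, its 7 markers and the 14 lists of 385 genes were chosen with earlier results of these data known. The text names the markers, the 12 highest and 8 lowest genes of the cluster that keep their direction in all libraries, up to 8 rises and falls per treatment with at least 10 CPM and the same direction in both replicates, the 5 terms of treatment by cluster with the smallest p, up to 4 called members per list followed through the alternatives, other list members by their counts, and genes that the study names for this experiment. A few genes that these rules select are not reported here. Alternatives are described in the closing section.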

Additional observations from a re-analysis of the deposited data

Results flagged for a closer look

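The effect of each treatment in cluster 0 was compared with that in cluster 1 by testing the difference itself, as the term for treatment by cluster in edgeR with Benjamini-Hochberg adjustment. With TGFB1, 115 genes differed between the clusters. The terms, as log2 fold change in cluster 0 minus cluster 1, were -0.74 for CTSD, -0.86 for AEBP1, 0.75 for VGF, -0.47 for AKR1A1 and -0.30 for S100A6. With TGFBRi, 26 genes differed, with terms of 0.999 for ID3, -0.32 for DDIT4, 0.29 for SLC27A3, 0.27 for ISG15, -0.19 for UBE2S and -0.24 for FABP7. With PI3Ki, 469 genes differed, with terms of -0.42 for HSP90AA1, -0.49 for AKR1A1, -0.39 for PRDX1, -0.51 for HSPA5, -1.10 for HSPA1A and -0.22 for FABP7. Cluster 1 had 0.555% of its cells in G1 and 44.9% in G2/M, against 54.2% and 2.33% in cluster 0, while 54.5% and 43.5% were in S. The part of phase in these terms was not tested, nor was that of which cells kept the label of cluster 0 under a treatment.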

How the results depend on the processing

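Directions held in most alternatives. Genes that were not called are among the pairs counted next, and count as the same where they stay so. Counted over pairs of a named gene and a left-out library, the status within cluster 0 (called or not) was the same in 1257 pairs. A call was lost in 181 and gained in 18. Over pairs of a gene and another setting these were 1485, 249 and 17, and the direction turned in 7. For terms by cluster, the status was the same in 269 pairs with a left-out library, and a call was lost in 19. Over the other settings the status was the same in 131 pairs, a call was lost in 6 and gained in 4, and 3 turned. The replicate block moved the counts of calls. With no replicate block they were 97 for TGFB1, 274 for TGFBRi and 355 for PI3Ki, and 5 for the TGFBRi term by cluster.

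DESeq2 called 131, 140 and 182 genes for TGFB1, TGFBRi and PI3Ki. S cells alone gave 59, 259 and 397. With 115 cells per library, 59 genes were called for TGFBRi and 79 for PI3Ki. There SPRY4 (-0.10) turned with TGFBRi and TSC22D3 (0.26) with PI3Ki, and in S cells HIST1H2AC (-0.025) turned with PI3Ki. Fitting the PI3Ki and untreated libraries alone called 1310. Leaving out 1 library gave 52 to 388 for TGFB1, 173 to 1230 for TGFBRi and 142 to 1462 for PI3Ki, and for the terms by cluster 53 to 190, 1 to 43 and 109 to 533. Against all other clusters that are not primed, the terms, which also hold the shift of cells into clusters 3 and 6, were called for 415 genes with TGFB1 and 1103 with PI3Ki, and SLC27A3 (-0.16, TGFBRi), HSP90AA1 (0.0139, PI3Ki) and POU3F1 (-0.32, PI3Ki) turned.

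The following were chosen after seeing the data: all cells that are not primed in place of cluster 0, leaving out the TGFB1 libraries, leaving out each library for the terms by cluster, shares within a phase, reassignment over all genes, and a ratio of 25% above 1 in place of 1.5. All cells that are not primed called 2665 genes for TGFB1 and 2170 for PI3Ki, and turned HOXB9 (-0.30), SHTN1 (-0.40), PTTG1 (-0.22) and VGF (-0.72) with TGFB1.

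Genes higher in cluster 0 by 1.5-fold in every library numbered 0 with equal weight per cluster, 0 at a minimum of 50 CPM, 0 in G1 cells, 8 in untreated libraries, 3 without TGFB1 libraries and 6 at 25% above 1. Lower genes numbered 46 at 50 CPM, 157 in untreated libraries, 0 in G1 cells, 35 in S cells and 128 at that lower ratio. Leaving out r1 or r2 gave 1 higher and 91 to 107 lower genes, 10 to 11 leading genes in the separate experiment and a sum of squared log odds of the share over treatments of 4.89 to 6.73 (5.77 with both, and no p with 1 replicate). The share had p = 0.0833 (exact permutation test) after reassignment over genes not called within cluster 0, and 0.0833 over all genes. Where a value shows no cause, the cause was not tested. The 119 and 115 cluster 0 cells of the TGFB1 libraries set the precision there.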
